A study of Homo sapiens with 30 samples.

Results

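The genes described here are 10 components of the Notch pathway, picked by gene name from the 19408 genes that both count tables of the study hold. They are the receptors NOTCH1, NOTCH2 and NOTCH3, the ligands JAG1, JAG2 and DLL1, the receptor-modifying enzyme LFNG, and the targets HES1, HEY1 and NRARP. All 10 were found in both tables, and all 10 passed the filter on low counts in both. Notch receptors are activated when a ligand on a neighbouring cell binds them: ADAM proteases and then gamma-secretase cut the receptor, and its intracellular domain enters the nucleus, where it joins the DNA-binding protein RBPJ and coactivators of the MAML family. HES1 and HEY1, which encode transcriptional repressors, and NRARP, which encodes a feedback inhibitor of the nuclear Notch complex, are among the best-known direct targets. In stratified epithelia and the urothelium the pathway takes part in the balance between proliferating basal cells and differentiation.

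The cells were UMUC1, an established human bladder cancer line with a loss-of-function mutation of UTX. UTX, the product of KDM6A, removes methyl groups from lysine 27 of histone H3. All 10 groups had 3 libraries each. In the first experiment the cells stably carried a pSIN-puro vector that was empty (EV), held wild type UTX (UTX), or held UTX with H1146A and E1148A (HEAA), which alter the iron-binding site of its demethylase domain. Each of these 3 lines was plated either in full medium, which was MEM holding 10% serum (EV_full, UTX_full and HEAA_full), or in sphere medium, which was MEM without serum but with EGF and FGF2, both at 20 ng/ml, and a B27 supplement free of vitamin A (EV_sphere, UTX_sphere and HEAA_sphere). In the second experiment all cells grew in full medium and carried FGFR3 in pBabe-puro, either wild type (FGFR3WT) or with S249C (FGFR3S249C), an activating change found in bladder cancer, together with a pCDH-blasticidin vector that was empty or held wild type UTX. Those groups are EV_FGFR3WT, UTX_FGFR3WT, EV_FGFR3S249C and UTX_FGFR3S249C. The lines are stable expression lines of 1 parental cell line, and no label tells whether the 3 replicates came from separate cultures. The p-values therefore rest on the spread among these libraries, which may be technical.

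Levels are given in CPM, counts per 1000000 counts of a library after scaling for library composition, for replicates 1, 2 and 3 in that order. Differences are log2 fold changes ± SE with Benjamini-Hochberg adjusted p from edgeR's quasi-likelihood test over all genes, and a gene rose or fell where the adjusted p was under 0.05. In bulk RNA, fewer cells that express a gene and less RNA per cell cannot be told apart. Levels are compared within an experiment only, since the 2 experiments used different vectors and library kits.

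The promoters of HES1 and NRARP are shown because these targets had the narrowest and the widest range of levels among the 3 targets in the first experiment, 1.93-fold for HES1 and 83.9-fold for NRARP between the highest and the lowest group mean. Each line gives the 250 bases before the transcription start, 5′ to 3′ on the gene's strand, from RefSeq on GRCh38.p14 (HES1 chr3:194135898-194136147, plus strand; NRARP chr9:137302272-137302521, minus strand). Capitals mark matches to the RBPJ site GTGGGAA or to its shorter form TGGGAA, which lies within it, searched on both strands.
HES1: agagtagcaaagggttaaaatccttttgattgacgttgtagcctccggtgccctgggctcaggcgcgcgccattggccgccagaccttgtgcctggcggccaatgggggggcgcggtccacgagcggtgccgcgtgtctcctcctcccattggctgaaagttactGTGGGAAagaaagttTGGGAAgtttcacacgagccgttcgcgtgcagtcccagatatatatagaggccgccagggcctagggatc
NRARP: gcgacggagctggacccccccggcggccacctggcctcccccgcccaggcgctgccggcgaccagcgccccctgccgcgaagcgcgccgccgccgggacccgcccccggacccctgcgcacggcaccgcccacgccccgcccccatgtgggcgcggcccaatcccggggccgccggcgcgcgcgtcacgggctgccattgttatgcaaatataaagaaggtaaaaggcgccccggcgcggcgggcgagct
The HES1 promoter held GTGGGAA from 85 to 79 bases before the start and a further TGGGAA from 70 to 65 bases before it, both in the orientation written. These letters were not found in the NRARP window. The tables held promoters for 8 of the 10 genes (9 promoters, 300 bases each, from 250 before to 50 after the start). Besides HES1, each of the 2 LFNG promoters held 1 TGGGAA and no GTGGGAA, and the promoters of NOTCH1, NOTCH2, NOTCH3, JAG1 and JAG2 held neither. Of all 35116 promoters in the table, 6.25% held GTGGGAA and 24.0% held TGGGAA.

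Library totals ranged from 23749352 to 40111234 counts for the 18 libraries of the first experiment and from 21672408 to 28290664 counts for the 12 of the second. KDM6A checked the labels: its mean level was 17.4 ± 0.74 CPM (SD, n = 3) in EV_full and 8.17 ± 0.78 CPM in EV_sphere, and the means of the 4 groups with UTX or HEAA in that experiment lay between 579 and 942 CPM. In the second experiment it was at 15.8 ± 1.02 and 11.6 ± 1.36 CPM in the empty-vector groups and at 824 ± 73.2 and 862 ± 141 CPM in the UTX groups. Of 16 urothelial and epithelial markers, 15 reached 1 CPM in a library of the first experiment (UPK3A was at 0), and 14 of the 15 listed in the second table did so (KRT20 did not). Their summed level moved with the groups, from 6601 to 6921 CPM in UTX_full and 9522 to 9856 CPM in EV_full up to 23170 to 24460 CPM in EV_sphere, and lay between 7713 and 9326 CPM in the second experiment; its part in the results below was not tested. Of the markers of other cell types, PTPRC (leukocytes) stayed under 1 CPM in every library, as did CDH5 and KDR (endothelium) and COL1A2, DCN and PDGFRB (fibroblasts and mural cells) in those of the first experiment. There 2 of 4 leukocyte, 2 of 4 endothelial and 2 of 5 fibroblast and mural markers reached 1 CPM, with sums of 3.04 to 16.2, 2.66 to 4.35 and 1.504 to 51.6 CPM. The last sum was 34.7 to 51.6 CPM over the libraries in full medium and 1.504 to 2.74 CPM over those in sphere medium. In the second experiment 3 of 4 leukocyte markers, 2 of 2 endothelial markers in the table and 1 of 4 fibroblast and mural markers in the table reached 1 CPM. The leukocyte sum there was 5.15 to 10.1 CPM and the endothelial sum 1.24 to 3.06 CPM. In the first experiment the leukocyte sum was 3.04 to 3.45 CPM in EV_full, 3.39 to 4.57 in UTX_full, 6.29 to 6.84 in HEAA_full, 8.54 to 10.4 in EV_sphere and 14.8 to 16.2 over UTX_sphere and HEAA_sphere. The fibroblast and mural sum was 8.36 to 9.93 CPM in EV_FGFR3WT and 3.73 to 4.37 in UTX_FGFR3WT, and 6.12 to 7.42 in EV_FGFR3S249C and 3.46 to 4.01 in UTX_FGFR3S249C. CD3E, a T cell marker, was at 1.64 to 2.09 CPM in EV_FGFR3WT and at 0, 0 and 0.078 CPM in UTX_FGFR3WT. It was at 0.46 to 0.53 CPM in EV_FGFR3S249C and at 0.073, 0 and 0.071 CPM in UTX_FGFR3S249C. The part of these levels in the results was not tested.

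In all, 3 libraries stood apart from the others of their groups: replicate 2 of EV_sphere, replicate 1 of EV_FGFR3S249C and replicate 3 of UTX_FGFR3S249C. The chi-square per degree of freedom between replicates was 11.7 to 11.8, 11.1 to 11.3 and 9.99 to 11.6 for their pairs, against 5.64, 3.91 and 2.03 for the remaining pair of each group. In replicate 3 of UTX_FGFR3S249C genes with transcripts of at least 6000 bases, set against genes under 2000 bases, lay 0.18 below the group mean (log2), where the other replicates lay 0.11 and 0.075 above it. The same measure was -0.094 for replicate 3 of UTX_FGFR3WT and -0.089 for replicate 2 of UTX_full. Leaving out each of the 3 libraries ended 1 edgeR call among the 10 genes, that of NOTCH3 between UTX and EV beside FGFR3S249C, and brought 3, 2 of HES1 and 1 of JAG2, which are given with their values below.

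**Figure D1:**
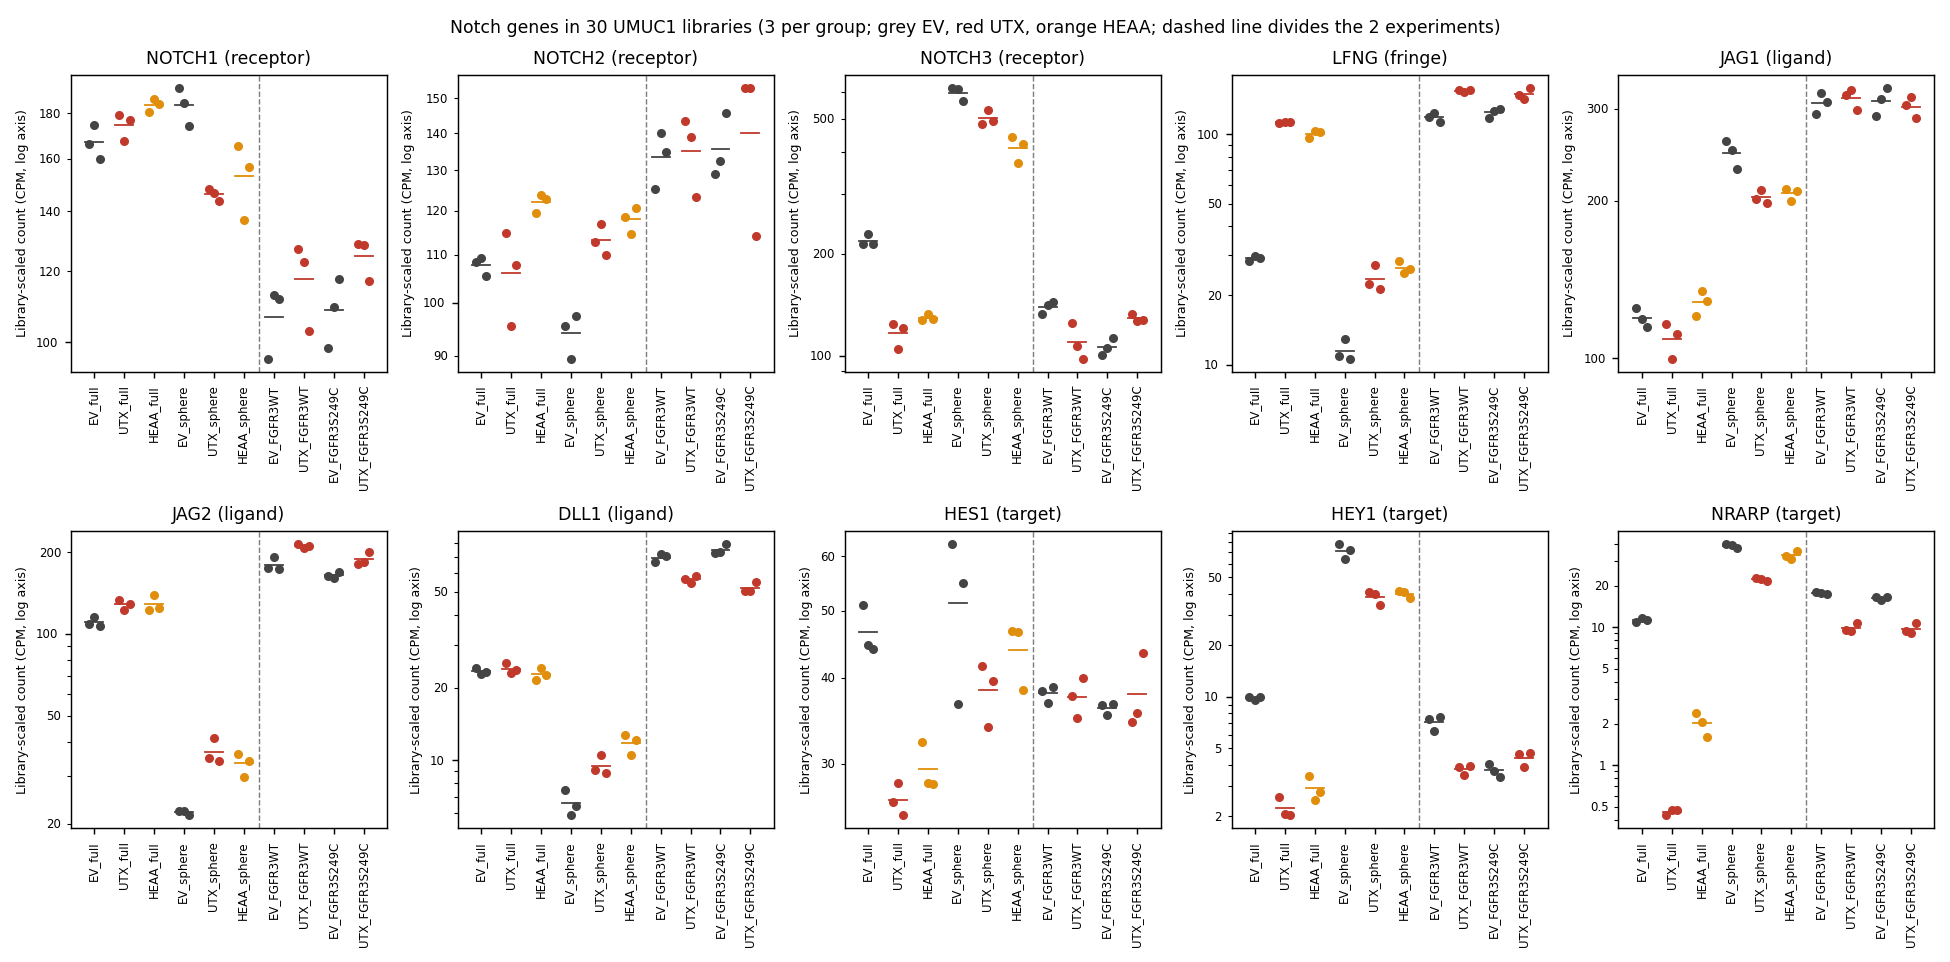
Library-scaled counts (CPM, log axis, with a scale of its own in each panel) of the 10 Notch genes in all 30 libraries. Each point is a library, the horizontal bar is the group mean (n = 3), grey is EV, red UTX and orange HEAA, and the dashed line divides the 2 experiments, whose levels are not compared. In the first experiment NRARP runs from 0.44 to 39.8 CPM and HEY1 from 2.04 to 77.6 CPM, while NOTCH1 and NOTCH2 stay within a narrow band.

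In full medium, wild type UTX went with less RNA of the 3 targets and of NOTCH3, and with more of LFNG and JAG2. NRARP fell 24.3-fold, HEY1 4.37-fold, NOTCH3 1.88-fold and HES1 1.75-fold, while LFNG rose 3.88-fold and JAG2 1.17-fold. HEAA moved the same 6 genes in the same directions, and its comparison shares the EV_full libraries with that of UTX. With UTX, 2 of the 10 genes rose and 4 fell, beside 28.4% and 29.2% of all 19629 genes tested (57.7% either way), and 6 had no overlap between the libraries of the 2 groups, beside 63.6% of all genes. With HEAA 4 rose and 4 fell, beside 23.2% and 25.3% (48.5% either way), and 8 had no overlap, beside 58.5%. Without replicate 3 of EV_full the count with HEAA was 5 rather than 8. The counts with UTX were close to the shares of all genes and are no result about the Notch genes, so the sizes below carry the description.

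NRARP (ENSG00000198435, chromosome 9, 137300482 to 137302251, minus strand; positions here and below are those of GENCODE v29 on GRCh38) was at 10.8, 11.7 and 11.2 CPM in EV_full, 0.44, 0.48 and 0.47 CPM in UTX_full and 2.40, 2.05 and 1.59 CPM in HEAA_full. The 3 groups did not overlap, and the HEAA libraries lay between those of EV and UTX. Its UTX_full level rested on 42 counts over the 3 libraries, against 1157 in EV_full. The log2 fold change against EV was -4.60 ± 0.14 (SE, adjusted p = 4.5e-17) with UTX, a size or more that 0.178% of all genes reached downward, and -2.49 ± 0.10 (SE, adjusted p = 1.8e-14) with HEAA, reached by 0.453%. HEY1, a repressor of the HES-related family, was at 9.98, 9.61 and 9.94 CPM in EV_full, 2.58, 2.07 and 2.04 in UTX_full and 3.46, 2.49 and 2.80 in HEAA_full. Every EV library lay above every UTX and HEAA library, and the UTX and HEAA libraries overlapped. HEY1 fell by 2.13 ± 0.13 (SE, adjusted p = 1.2e-11) on the log2 scale with UTX and by 1.76 ± 0.13 (SE, adjusted p = 2.9e-10) with HEAA. HES1 (ENSG00000114315, chromosome 3, 194136145 to 194138732, plus strand), the repressor whose promoter is printed above, was at 51.0, 44.6 and 43.9 CPM in EV_full, 26.4, 28.2 and 25.3 in UTX_full and 32.2, 28.1 and 28.0 in HEAA_full. Again the EV libraries were above all others, at a smaller distance than for NRARP and HEY1, with log2 fold changes of -0.80 ± 0.13 (SE, adjusted p = 1.9e-05) and -0.66 ± 0.13 (SE, adjusted p = 2.5e-04). All genes with transcripts under 2000 bases, among them NRARP (1770 bases) and HES1 (1578 bases), had a median log2 fold change of -0.20 with UTX and -0.15 with HEAA in full medium, where those of at least 6000 bases had 0.067 and 0.050; the part of transcript length in the falls of NRARP and HES1 was not tested.

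Among the receptors, NOTCH3 (ENSG00000074181, chromosome 19, 15159038 to 15200981, minus strand) was the one that moved most. Its level was 214, 228 and 213 CPM in EV_full, 124, 105 and 120.4 in UTX_full and 128, 132 and 128 in HEAA_full, with every EV library above the rest. The log2 fold change was -0.91 ± 0.06 (SE, adjusted p = 5.7e-11) with UTX and -0.76 ± 0.06 (SE, adjusted p = 2.0e-09) with HEAA. NOTCH1 (ENSG00000148400, chromosome 9, 136494433 to 136545786, minus strand) was at 166, 175 and 160.0 CPM in EV_full and 179, 167 and 177 in UTX_full, 2 groups that overlapped and did not pass the threshold. In HEAA_full it was at 180.3, 186 and 184 CPM, all above EV_full, a difference of 0.14 ± 0.05 (SE, adjusted p = 0.038) that was no longer called when any 1 of the 6 libraries was left out (0.09 to 0.15). NOTCH2 (ENSG00000134250, chromosome 1, 119911553 to 120069626, minus strand) was at 108, 109 and 105 CPM in EV_full, 115, 95.5 and 108 in UTX_full and 119.5, 124 and 123 in HEAA_full. The UTX libraries overlapped the EV libraries and the HEAA libraries were above them, by 0.18 ± 0.05 (SE, adjusted p = 0.0046), which without replicate 3 of EV_full was 0.15 and not called. NOTCH2 shares sequence with its partial copies: NOTCH2NLA was at 12.5 to 20.5 CPM in the first experiment and 10.9 to 13.6 CPM in the second. NOTCH2NLB (0.68 to 3.05 CPM) and NOTCH2NLC (4.35 to 7.36 CPM) were found by name in the second experiment only. Reads of NOTCH2 and its copies may have been divided by the quantification.

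LFNG (ENSG00000106003, chromosome 7, 2512529 to 2529177, plus strand) encodes lunatic fringe, which adds N-acetylglucosamine to fucose on Notch receptors and so changes their response to Delta and Jagged ligands. It was at 28.1, 29.7 and 29.1 CPM in EV_full, 112, 113 and 113 in UTX_full and 96.2, 103 and 102 in HEAA_full. The EV libraries stood far below the others, and the log2 fold change was 1.96 ± 0.06 (SE, adjusted p = 1.2e-16) with UTX and 1.79 ± 0.06 (SE, adjusted p = 1.2e-15) with HEAA, sizes that 1.7% and 1.71% of all genes reached upward. The ligands moved less. JAG2 (ENSG00000184916, chromosome 14, 105140981 to 105168824, minus strand) was at 109, 116 and 107 CPM in EV_full, 134, 123 and 129 in UTX_full and 123, 139.5 and 125 in HEAA_full. Both groups lay above EV without overlap, by 0.22 ± 0.06 (SE, adjusted p = 0.004) with UTX and 0.23 ± 0.06 (SE, adjusted p = 0.0044) with HEAA. Leaving out replicate 3 of EV_full (0.18) or replicate 2 of HEAA_full (0.16) ended the JAG2 call with HEAA. JAG1 (ENSG00000101384, chromosome 20, 10637684 to 10673999, minus strand) was at 125, 119 and 115 CPM in EV_full, 116, 99.9 and 111 in UTX_full and 120.4, 134 and 129 in HEAA_full. DLL1 (ENSG00000198719, chromosome 6, 170282206 to 170306565, minus strand) was at 24.2, 22.7 and 23.3 CPM in EV_full, 25.3, 23.0 and 23.6 in UTX_full and 21.6, 24.1 and 22.6 in HEAA_full. For both ligands the groups overlapped EV, and neither comparison passed the threshold, although JAG1 with UTX missed it narrowly (-0.13 ± 0.05, adjusted p = 0.05004). JAG1 with UTX was called by DESeq2 (-0.13), without the filter on low counts (-0.17), with only the compared groups (-0.14) and without replicate 3 of EV_full (-0.16) or replicate 1 of UTX_full (-0.18), and it was -0.07 without replicate 2 of UTX_full. With libraries scaled by their totals it was -0.08 with UTX and 0.15, called, with HEAA. An antisense gene overlaps exons of JAG1 and a second transcript on the same strand overlaps exons of JAG2; no source used here states whether counting used strand.

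**Figure D2:**
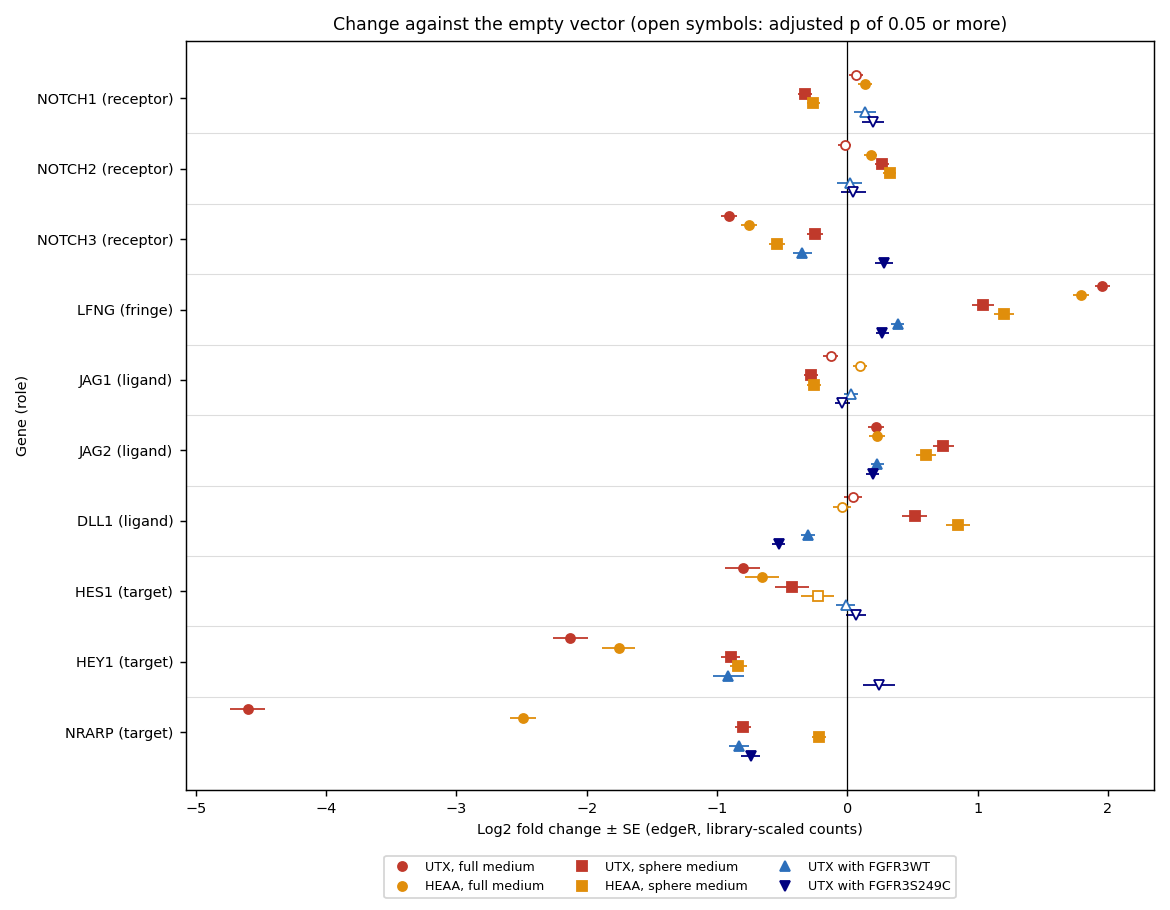
Log2 fold change (x axis, ± SE from edgeR) of the 10 Notch genes against the empty vector of the same medium or FGFR3 background, for UTX and HEAA in full and sphere medium and for UTX in the second experiment. Filled symbols passed an adjusted p of 0.05. LFNG lies to the right of 0 in all 6 comparisons, from 0.27 to 1.96, and NRARP to the left in all 6, from -4.60 to -0.22.

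In sphere medium the same 3 leading genes moved in the same directions as in full medium: UTX went with 1.86-fold less HEY1, 1.74-fold less NRARP and 2.06-fold more LFNG than EV. The ligands JAG2 and DLL1 were higher and JAG1 lower with both UTX and HEAA. With UTX 4 of the 10 genes rose and 6 fell, beside 22.8% and 25.6% of all genes (48.4% either way), and 9 had no overlap between the groups, beside 54.6%. With HEAA 4 rose and 5 fell, beside 19.9% and 21.5% (41.4% either way), and 9 had no overlap, beside 48.2%. Both comparisons share the EV_sphere libraries.

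HEY1 in sphere medium was at 77.6, 64.0 and 72.2 CPM in EV, 40.9, 39.6 and 34.3 in UTX and 41.4, 40.7 and 37.7 in HEAA cells, so all EV libraries were highest and the other groups overlapped. The log2 fold change was -0.90 ± 0.07 (SE, adjusted p = 4.7e-10) with UTX and -0.84 ± 0.07 (SE, adjusted p = 1.4e-09) with HEAA. NRARP was at 39.8, 39.0 and 37.3 CPM in EV_sphere, 22.7, 22.4 and 21.5 in UTX_sphere and 32.9, 31.0 and 35.8 in HEAA_sphere. Its 3 groups did not overlap, with HEAA nearer to EV than to UTX. It fell by 0.80 ± 0.06 (SE, adjusted p = 2.8e-10) with UTX and by 0.22 ± 0.06 (SE, adjusted p = 0.0032) with HEAA, and the smaller difference was -0.12 and not called when libraries were scaled by their totals alone. HES1 was at 62.4, 36.6 and 54.9 CPM in EV_sphere, 41.5, 33.9 and 39.5 in UTX_sphere and 46.7, 46.6 and 38.4 in HEAA_sphere. Replicate 2 of EV_sphere was low, so the EV libraries overlapped both other groups. HES1 with UTX was called at -0.42 ± 0.13 (SE, adjusted p = 0.01), but not without replicate 1 of EV_sphere (-0.26), without replicate 2 of UTX_sphere (-0.35) or with libraries scaled by their totals (-0.31). With HEAA its difference from EV, -0.23 ± 0.13 (SE, adjusted p = 0.16), missed the threshold, and it moved with single libraries: it was -0.41 and called without replicate 2 of EV_sphere, -0.052 without replicate 1 of EV_sphere and -0.13 without replicate 3 of HEAA_sphere. It was also called without the filter on low counts (-0.20), and was -0.13 with libraries scaled by their totals. Genes with transcripts under 2000 bases had a median log2 fold change of -0.13 with UTX and -0.092 with HEAA in sphere medium.

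LFNG in sphere medium was at 11.0, 12.9 and 10.6 CPM in EV, 22.4, 27.1 and 21.4 in UTX and 28.2, 25.0 and 25.9 in HEAA cells. The EV libraries were lowest, by 1.04 ± 0.08 (SE, adjusted p = 6.1e-10) against UTX and 1.20 ± 0.08 (SE, adjusted p = 4.6e-11) against HEAA. JAG2 was at 22.4, 22.4 and 21.6 CPM in EV_sphere, 34.9, 41.5 and 34.1 in UTX_sphere and 36.3, 29.9 and 34.0 in HEAA_sphere, again with EV lowest and no overlap. It rose by 0.74 ± 0.08 (SE, adjusted p = 7.6e-08) with UTX and 0.60 ± 0.08 (SE, adjusted p = 1.4e-06) with HEAA. DLL1, a Delta-type ligand, was at 7.47, 5.91 and 6.44 CPM in EV_sphere, 9.06, 10.5 and 8.81 in UTX_sphere and 12.7, 10.5 and 12.1 in HEAA_sphere. Its lowest UTX library was above the highest EV library, and it rose by 0.52 ± 0.10 (SE, adjusted p = 1.4e-04) with UTX and 0.85 ± 0.09 (SE, adjusted p = 1.0e-07) with HEAA. JAG1 went the other way, from 261, 249.9 and 230.0 CPM in EV_sphere to 202, 209.5 and 198 in UTX_sphere and 211, 199.9 and 209 in HEAA_sphere. The differences were -0.28 ± 0.05 (SE, adjusted p = 1.5e-04) and -0.26 ± 0.05 (SE, adjusted p = 4.6e-04), and with libraries scaled by their totals they stayed called at -0.17 and -0.16.

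All 3 receptors changed in sphere medium, NOTCH1 and NOTCH3 downward and NOTCH2 upward. NOTCH3 was at 616, 612 and 564 CPM in EV_sphere, 482, 532 and 493 in UTX_sphere and 441, 371 and 421 in HEAA_sphere, with EV highest and HEAA lowest. It fell by 0.25 ± 0.06 (SE, adjusted p = 0.0016) with UTX and by 0.54 ± 0.06 (SE, adjusted p = 2.3e-07) with HEAA; the UTX difference was -0.14 and not called with libraries scaled by their totals. NOTCH1 was at 192, 185 and 174 CPM in EV_sphere, 148, 147 and 144 in UTX_sphere and 166, 137 and 157 in HEAA_sphere, and fell by 0.33 ± 0.05 (SE, adjusted p = 2.5e-05) and 0.26 ± 0.05 (SE, adjusted p = 4.1e-04). Without replicate 2 of HEAA_sphere, its lowest library, the HEAA difference was -0.17, and with libraries scaled by their totals it was -0.16, both still called. NOTCH2 was at 95.4, 89.5 and 97.4 CPM in EV_sphere, 113, 117 and 109.8 in UTX_sphere and 119, 115 and 121 in HEAA_sphere, and rose by 0.27 ± 0.05 (SE, adjusted p = 1.5e-04) and 0.33 ± 0.05 (SE, adjusted p = 1.6e-05), so NOTCH1 and NOTCH2 moved in opposite directions with both proteins.

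Wild type UTX and HEAA were also compared directly. NRARP passed the threshold in both media: it was 4.32-fold lower with UTX than with HEAA in full medium and 1.5-fold lower in sphere medium. In full medium 1 of the 10 genes was higher with UTX and 3 were lower, beside 8.94% and 12.4% of all genes (21.4% either way); 6 had no overlap, beside 34.7%. Without replicate 2 of UTX_full 2 genes passed in place of 4. In sphere medium 1 was higher and 2 were lower, beside 8.87% and 11.2% (20% either way), and 3 had no overlap, beside 34.9%. The NRARP difference was -2.11 ± 0.20 (SE, adjusted p = 1.9e-07) in full medium, reached downward by 0.265% of all genes, and -0.59 ± 0.06 (SE, adjusted p = 8.6e-07) in sphere medium. In full medium NOTCH2 (-0.20 ± 0.05, adjusted p = 0.0058) and JAG1 (-0.23 ± 0.06, adjusted p = 0.0044) were also lower with UTX and LFNG was higher (0.16 ± 0.06, adjusted p = 0.04). The NOTCH2 call was lost without replicate 2 of UTX_full (-0.13), and the LFNG call without any 1 of the 6 libraries (0.14 to 0.19) and with RLE size factors (0.16). NOTCH3 in full medium was at -0.15 ± 0.06, adjusted p = 0.099 with edgeR and was called lower with UTX by DESeq2 (-0.16) and without the filter on low counts (-0.16). In sphere medium NOTCH3 was higher with UTX (0.29 ± 0.06, adjusted p = 0.0017) and DLL1 was lower (-0.33 ± 0.09, adjusted p = 0.01). The DLL1 call was lost without replicate 3 of UTX_sphere (-0.30) or replicate 1 of HEAA_sphere (-0.28). LFNG was called lower there without replicate 2 of UTX_sphere (-0.29) and HES1 without the filter on low counts (-0.20). NOTCH1 was called lower there without replicate 2 of HEAA_sphere (-0.16) and was -0.02 without replicate 1 of HEAA_sphere. HEY1 in full medium was called lower without the filter on low counts (-0.38). KDM6A itself was lower in UTX than in HEAA cells in both media, by 0.26 ± 0.04 (SE, adjusted p = 2.7e-05) in full and 0.13 ± 0.04 (SE, adjusted p = 0.014) in sphere medium, and its part in these differences was not tested.

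The 10 genes were next compared between the media within each line. In EV cells, set against full medium, HEY1 rose 7.25-fold, NRARP 3.44-fold, NOTCH3 2.74-fold and JAG1 2.07-fold, while JAG2 fell 4.99-fold, DLL1 3.54-fold and LFNG 2.52-fold. The ligands thus divided: JAG1 rose and JAG2 and DLL1 fell, in all 3 lines. In each line 5 of the 10 genes rose and 4 fell. Over all genes 33.1% rose and 32.4% fell in EV cells (65.5% either way), 35.1% and 35.4% did in UTX cells (70.5%), and 34.4% and 36.3% did in HEAA cells (70.8%). Libraries of the 2 media did not overlap for 8, 9 and 9 of the 10 genes in EV, UTX and HEAA cells, beside 69.5%, 72.7% and 73.7% of all genes. Most genes thus moved with the medium, as the Notch genes did.

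The targets HEY1 and NRARP rose with sphere medium in all 3 lines. HEY1 rose by 2.86 ± 0.08 (SE, adjusted p = 2.5e-18) in EV, 4.09 ± 0.11 (SE, adjusted p = 2.3e-18) in UTX and 3.77 ± 0.11 (SE, adjusted p = 3.4e-18) in HEAA cells, on the log2 scale. NRARP rose by 1.78 ± 0.06 (SE, adjusted p = 1.7e-16) in EV, 5.58 ± 0.12 (SE, adjusted p = 5.1e-20) in UTX and 4.06 ± 0.09 (SE, adjusted p = 3.6e-20) in HEAA cells, and every sphere library lay above every full-medium library of all 3 lines. HES1 rose by 0.53 ± 0.14 (SE, adjusted p = 0.0019) in UTX and 0.58 ± 0.13 (SE, adjusted p = 6.0e-04) in HEAA cells. In EV cells its groups overlapped and the difference, 0.15 ± 0.12 (SE, adjusted p = 0.30), missed the threshold. It was called without replicate 2 of EV_sphere (0.35) and without the filter on low counts (0.15), and was -0.008 without replicate 1 of EV_sphere. All genes under 2000 bases had a median log2 fold change of 0.14 between the media in EV cells, and those of at least 6000 bases had one of 0.018. NOTCH3 rose by 1.45 ± 0.06 (SE, adjusted p = 5.6e-15), 2.11 ± 0.06 (SE, adjusted p = 1.3e-17) and 1.67 ± 0.06 (SE, adjusted p = 7.1e-16) in EV, UTX and HEAA cells. In these cells its lowest sphere library, at 371 CPM in HEAA_sphere, lay above its highest full-medium library, at 228 CPM in EV_full.

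The Jagged ligands moved apart. JAG1 rose by 1.05 ± 0.05 (SE, adjusted p = 1.7e-13) in EV, 0.90 ± 0.05 (SE, adjusted p = 3.0e-12) in UTX and 0.69 ± 0.05 (SE, adjusted p = 2.1e-10) in HEAA cells. JAG2 changed by -2.32 ± 0.07 (SE, adjusted p = 1.9e-17), -1.81 ± 0.07 (SE, adjusted p = 8.5e-16) and -1.94 ± 0.07 (SE, adjusted p = 1.9e-16) in the same order, and DLL1 by -1.82 ± 0.08 (SE, adjusted p = 1.6e-14), -1.35 ± 0.08 (SE, adjusted p = 2.4e-12) and -0.93 ± 0.08 (SE, adjusted p = 3.9e-10). LFNG fell with the 2 latter ligands, with differences of -1.33 ± 0.08 (SE, adjusted p = 1.0e-12), -2.25 ± 0.07 (SE, adjusted p = 5.6e-18) and -1.93 ± 0.06 (SE, adjusted p = 4.6e-17). For these 4 genes all 3 sphere libraries of a line lay on 1 side of its 3 full-medium libraries. NOTCH1 and NOTCH2 moved by less than NOTCH3 did. NOTCH1 was lower in sphere medium in UTX (-0.26 ± 0.05, adjusted p = 2.4e-04) and HEAA cells (-0.26 ± 0.05, adjusted p = 1.8e-04), where the HEAA value was -0.15 without replicate 2 of HEAA_sphere and -0.40 with libraries scaled by their totals. In EV cells it was called higher (0.14 ± 0.05, adjusted p = 0.029) although the groups overlapped. That call was lost without replicate 1 (0.13) or 3 (0.11) of EV_full or replicate 1 of EV_sphere (0.11), and the sign turned with libraries scaled by their totals (-0.05). NOTCH2 was lower in EV_sphere than in EV_full (-0.19 ± 0.05, adjusted p = 0.0018), and -0.38 with libraries scaled by their totals. That scaling lowered the median gene of the sphere comparisons by 0.18 in EV, 0.13 in UTX and 0.13 in HEAA cells on the log2 scale. NOTCH2 missed the threshold in UTX (0.09 ± 0.05, adjusted p = 0.11) and HEAA cells (-0.05 ± 0.05, adjusted p = 0.40). In UTX cells it was called higher without the filter on low counts (0.16) and without replicate 1 of UTX_full (0.15).

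**Figure D3:**
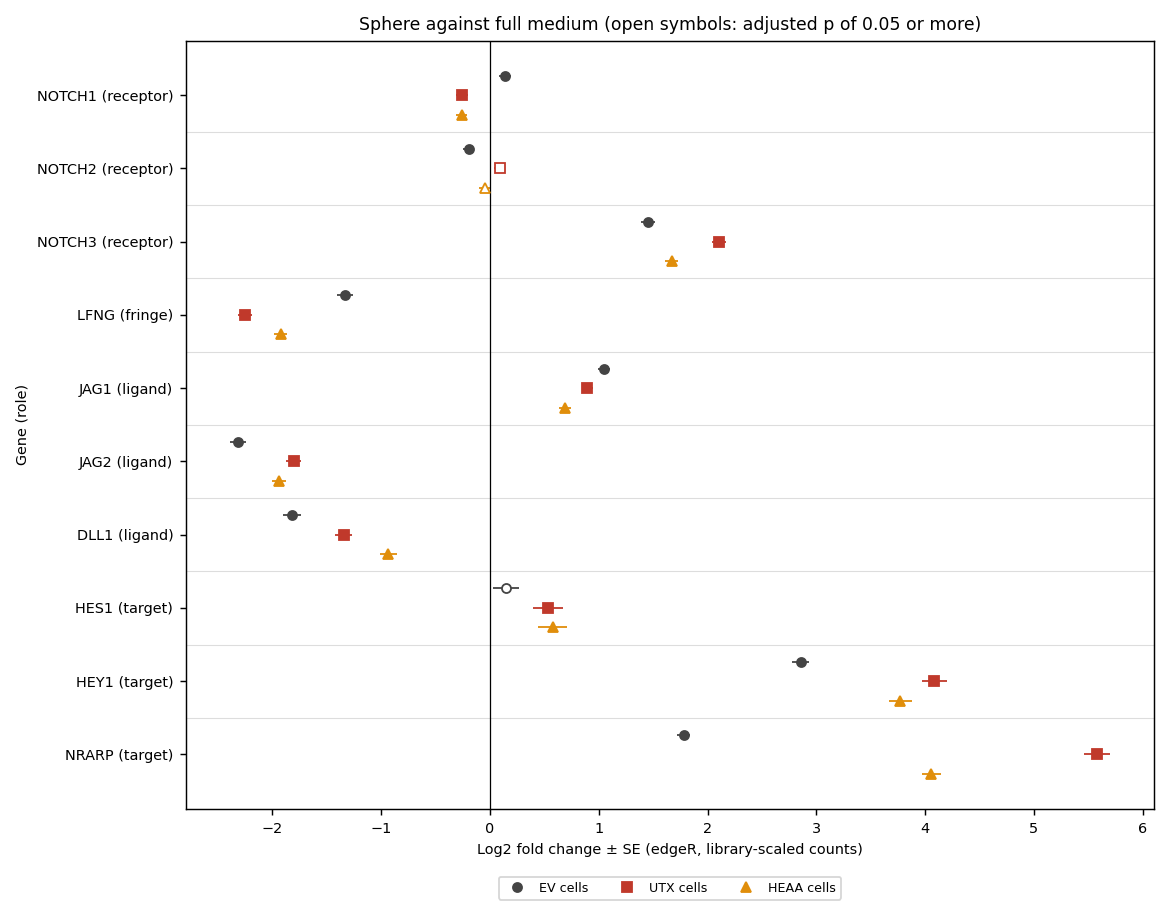
Log2 fold change between sphere and full medium (x axis, ± SE from edgeR) of the 10 Notch genes in EV, UTX and HEAA cells. Filled symbols passed an adjusted p of 0.05. NRARP goes from 1.78 in EV to 5.58 in UTX cells, while JAG2, DLL1 and LFNG lie to the left of 0 in all 3 lines.

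Whether the difference from EV with UTX or HEAA itself differed between the 2 media was tested as an interaction, the log2 fold change against EV in sphere medium minus that in full medium. For UTX 6 of the 10 genes had a higher and 2 a lower value in sphere medium, beside 21.1% and 16.2% of all genes (37.3% either way). For HEAA these were 4 and 3 of 10, beside 18.7% and 14.3% (33% either way). The difference was largest for NRARP among the 10 genes, at 3.80 ± 0.16 (SE, adjusted p = 1.3e-13) for UTX and 2.27 ± 0.12 (SE, adjusted p = 5.7e-12) for HEAA, the fall against EV being the deeper one in full medium. HEY1 followed at 1.23 ± 0.16 (SE, adjusted p = 1.9e-06) and 0.92 ± 0.15 (SE, adjusted p = 5.7e-05). The rise of LFNG was smaller in sphere medium, by 0.92 ± 0.10 (SE, adjusted p = 3.2e-07) for UTX and 0.59 ± 0.10 (SE, adjusted p = 9.4e-05) for HEAA. DLL1, which did not pass in full medium with either protein, differed between media by 0.48 ± 0.12 (SE, adjusted p = 0.003) for UTX and 0.89 ± 0.11 (SE, adjusted p = 3.3e-06) for HEAA. The fall of NOTCH3 with UTX was smaller in sphere medium by 0.66 ± 0.09 (SE, adjusted p = 3.1e-06). JAG2 differed by 0.51 ± 0.10 (SE, adjusted p = 3.0e-04) for UTX and 0.38 ± 0.10 (SE, adjusted p = 0.0053) for HEAA, as its rise was larger in sphere medium. NOTCH1 differed by -0.39 ± 0.08 (SE, adjusted p = 2.6e-04) and -0.40 ± 0.08 (SE, adjusted p = 3.0e-04). NOTCH2 passed for UTX (0.29 ± 0.07, adjusted p = 0.0029) and JAG1 for HEAA (-0.36 ± 0.08, adjusted p = 9.8e-04). JAG1 for UTX missed the threshold (-0.15 ± 0.08, adjusted p = 0.13) and was called without replicate 2 of UTX_full (-0.21). With HEAA, NOTCH3 (0.22 ± 0.09, adjusted p = 0.062) and NOTCH2 (0.15 ± 0.07, adjusted p = 0.12) missed the threshold with edgeR, but NOTCH3 was called by DESeq2 (0.22), and both were called with library totals, without the filter on low counts and with only the compared groups (0.23 to 0.27 for NOTCH3 and 0.16 to 0.20 for NOTCH2). NOTCH3 was also called without replicate 1 or 3 of EV_full or replicate 1 of EV_sphere (0.26 to 0.27). Without replicate 2 of HEAA_sphere they were called at 0.32 and 0.21. For HES1 neither interaction passed the threshold in the fit of all libraries, at 0.38 ± 0.19 (SE, adjusted p = 0.12) and 0.43 ± 0.18 (SE, adjusted p = 0.077), and both moved with the EV_sphere libraries. Without replicate 2 they were 0.19 and 0.25, and without replicate 1 they were 0.54 and 0.61 and both called. Without the filter on low counts both were called (0.44 and 0.48), and the HEAA value was also called with libraries scaled by their totals (0.48), without replicate 1 of HEAA_full (0.53) and without replicate 3 of HEAA_sphere (0.55).

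In the second experiment, in cells that also carried FGFR3, 4 genes moved the same way with UTX on both FGFR3 backgrounds: NRARP and DLL1 fell, and LFNG and JAG2 rose. With FGFR3WT 2 of the 10 genes rose and 4 fell, beside 9.06% and 6.01% of all 19399 genes tested (15.1% either way), and 6 had no overlap, beside 34.7%. With FGFR3S249C 3 rose and 2 fell, beside 12.9% and 8.62% (21.5% either way), and 5 had no overlap, beside 33.9%. Over all 4 comparisons of UTX with EV in the study, NRARP was lower in 4, and LFNG and JAG2 were higher in 4. FGFR3 was at 1301 ± 75.0 CPM in EV_FGFR3WT and 2322 ± 109 CPM in EV_FGFR3S249C (SD, n = 3), a difference of 0.84 ± 0.05 (SE, adjusted p = 2.4e-07), and the part of that level in the comparisons between the backgrounds was not tested.

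NRARP was at 17.9, 17.6 and 17.4 CPM in EV_FGFR3WT and 9.60, 9.36 and 10.7 in UTX_FGFR3WT. On the mutant background it was at 16.6, 15.7 and 16.6 CPM with EV and 9.36, 9.11 and 10.8 with UTX. The UTX libraries lay below the EV libraries on both backgrounds, with log2 fold changes of -0.83 ± 0.08 (SE, adjusted p = 2.4e-06) and -0.74 ± 0.08 (SE, adjusted p = 5.0e-06). Without replicate 3 of UTX_FGFR3S249C, 1 of the 3 libraries that stood apart, the second value was -0.83. LFNG was at 119, 123 and 113 CPM in EV_FGFR3WT and 155, 153 and 156 in UTX_FGFR3WT, and at 118, 127 and 129 in EV_FGFR3S249C and 148, 142 and 159 in UTX_FGFR3S249C. It rose by 0.39 ± 0.05 (SE, adjusted p = 7.0e-05) and 0.27 ± 0.05 (SE, adjusted p = 0.0014), the latter 0.22 without that replicate. JAG2 was at 174, 192 and 173 CPM in EV_FGFR3WT, 214, 208 and 210.0 in UTX_FGFR3WT, 163, 161 and 169.6 in EV_FGFR3S249C and 181, 184 and 199.5 in UTX_FGFR3S249C. Every UTX library was above the EV libraries of its background, by 0.23 ± 0.05 (SE, adjusted p = 0.0056) and 0.19 ± 0.05 (SE, adjusted p = 0.012). DLL1 fell with UTX here, from 66.3, 71.8 and 70.4 CPM to 56.9, 54.5 and 58.0 with FGFR3WT and from 72.9, 73.0 and 78.9 to 50.2, 50.4 and 55.3 with FGFR3S249C. Its log2 fold changes were -0.30 ± 0.05 (SE, adjusted p = 0.0011) and -0.53 ± 0.05 (SE, adjusted p = 4.0e-06), where in the first experiment it rose with UTX in sphere medium and did not pass in full medium.

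For HEY1 and NOTCH3 the difference between UTX and EV itself differed between the FGFR3 backgrounds. HEY1 was at 7.46, 6.34 and 7.61 CPM in EV_FGFR3WT, 3.89, 3.49 and 3.94 in UTX_FGFR3WT, 4.04, 3.69 and 3.40 in EV_FGFR3S249C and 4.63, 3.86 and 4.70 in UTX_FGFR3S249C. Only the EV_FGFR3WT group stood apart, above all other libraries of that experiment. HEY1 fell by 0.91 ± 0.12 (SE, adjusted p = 6.7e-05) with UTX beside FGFR3WT, and its UTX and EV libraries overlapped beside FGFR3S249C, a difference that missed the threshold (adjusted p = 0.18). NOTCH3 was at 132, 141 and 144 CPM in EV_FGFR3WT, 124, 107 and 97.9 in UTX_FGFR3WT, 101, 105 and 113 in EV_FGFR3S249C and 133, 127 and 128 in UTX_FGFR3S249C. It fell with UTX beside FGFR3WT (-0.35 ± 0.07, adjusted p = 0.0036) and rose with UTX beside FGFR3S249C (0.28 ± 0.07, adjusted p = 0.011), and the groups did not overlap within either background. Without replicate 1 of EV_FGFR3S249C the rise was 0.24 and not called. The test of the difference itself passed for these genes, at 1.16 ± 0.17 (SE, adjusted p = 0.0051) for HEY1 and 0.63 ± 0.10 (SE, adjusted p = 0.0093) for NOTCH3, and for none of the other 8. Of all genes 0.572% passed it upward and 0.113% downward (0.686% either way). Leaving out replicate 3 of UTX_FGFR3S249C gave 1.11 and 0.63, and leaving out replicate 3 of UTX_FGFR3WT gave 1.19 and 0.55.

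Between the FGFR3 backgrounds in EV cells the same 2 genes differed, both lower with FGFR3S249C: HEY1 by 0.94 ± 0.12 (SE, adjusted p = 1.4e-04) and NOTCH3 by 0.39 ± 0.07 (SE, adjusted p = 0.0029) on the log2 scale. Of the 10 genes 2 fell and none rose, beside 6.45% of all genes that fell and 4.31% that rose (10.8% either way); 6 of 10 had no overlap, beside 30.5%. The comparison shares its EV libraries with the interaction. In UTX cells edgeR called none of the 10 genes between the backgrounds, beside 1.71% of all genes upward and 1.34% downward (3.05% either way); 2 had no overlap, beside 20.3%. In that comparison 3 had an unadjusted p under 0.05, DESeq2's Wald test called 1, NOTCH3, and edgeR called 1 without replicate 1 of UTX_FGFR3WT (NOTCH3, 0.34) and 1 without replicate 3 of UTX_FGFR3S249C (JAG2, -0.20). The remaining genes of the second experiment did not pass in any of its comparisons. NOTCH1 ranged over its 12 libraries from 95.9 to 129 CPM, NOTCH2 from 114 to 153 CPM, JAG1 from 287 to 328 CPM and HES1 from 34.5 to 43.4 CPM, with overlap between UTX and EV on both backgrounds. The lowest NOTCH2 level, 114 CPM, was that of replicate 3 of UTX_FGFR3S249C, whose companions were both at 153 CPM; NOTCH2 has the longest transcript of the 10 genes, 11389 bases, and the part of transcript length in that value was not tested.

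Levels of different genes can be set side by side only per length of transcript. Per kilobase of the longest coding transcript, NOTCH3 was the highest receptor in 8 of 10 groups, with 25.2 CPM per kilobase in EV_full and 69.0 in EV_sphere. Its margin was small in UTX_FGFR3WT, at 12.65 against 12.64 for NOTCH1, and in EV_FGFR3S249C, at 12.25 against 11.92 for NOTCH2. In UTX_full and HEAA_full NOTCH1 came first, at 18.8 and 19.7 CPM per kilobase, against 13.4 and 14.9 for NOTCH3. DLL1 was the lowest ligand in all 10 groups, and JAG1 stood above JAG2 in all 3 sphere groups, with 41.6 against 3.79 CPM per kilobase in EV_sphere. JAG2 was the higher of these ligands in UTX_full and HEAA_full. HES1 was the highest target in all 10 groups, at 29.5 CPM per kilobase in EV_full beside 6.35 for NRARP and 4.29 for HEY1. In EV_sphere HEY1 reached 31.1, close to the 32.5 of HES1. Per kilobase of merged exons these orders were the same with 1 exception. In EV_FGFR3S249C NOTCH1 rather than NOTCH2 came second by that measure, at 10.46 against 11.31 for NOTCH3. In EV_full JAG1 came before JAG2 by the first measure and after it by the second.

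Across the 6 groups of the first experiment the order of the target NRARP was EV_sphere, HEAA_sphere, UTX_sphere, EV_full, HEAA_full and UTX_full from high to low, with no overlap between any neighbours. HEY1 had the same order, but HEAA_sphere overlapped UTX_sphere and HEAA_full overlapped UTX_full. For LFNG the order began with UTX_full, HEAA_full and EV_full and ended with EV_sphere, and EV_full overlapped HEAA_sphere. The highest and lowest group means differed 32.0-fold for HEY1, 9.78-fold for LFNG, 5.84-fold for JAG2 and 5.14-fold for NOTCH3.

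Other genes of the pathway were read from a list of 54, of which 49 were tested in the first and 48 in the second experiment. The list was chosen with earlier results of these data known, and the part of transcript length in its counts was not tested. With UTX in full medium 25 of 49 rose and 7 fell (51.0% and 14.3%, beside 28.4% and 29.2% of all genes), with a median log2 fold change over the tested list of 0.13, beside 0.040 over all genes. In sphere medium 20 rose and 8 fell with UTX (40.8% and 16.3%, beside 22.8% and 25.6%), with a median of 0.066 beside -0.0083. With HEAA 21 rose and 9 fell in full medium (42.9% and 18.4%, beside 23.2% and 25.3%; median 0.12 beside 0.027), and 17 rose and 8 fell in sphere medium (34.7% and 16.3%, beside 19.9% and 21.5%; median 0.024 beside -0.020). In the second experiment 7 of 48 rose and 3 fell with UTX beside FGFR3WT (14.6% and 6.25%, beside 9.06% and 6.01%), where the median was -0.0029 beside 7.1e-04 over all genes. Beside FGFR3S249C 14 rose and 1 fell (29.2% and 2.08%, beside 12.9% and 8.62%), with a median of 0.082 beside -0.013. The count of 10 with FGFR3WT was 4 without replicate 1 of EV_FGFR3WT or of UTX_FGFR3WT and 6 without replicate 2 or 3 of UTX_FGFR3WT.

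Among the genes named by the rule, the neuralized genes, whose products are ubiquitin ligases that act on ligand endocytosis, moved furthest with UTX in full medium. NEURL1B rose with UTX in all 4 comparisons: from 9.65 ± 1.17 CPM in EV_full to 24.6 ± 1.00 in UTX_full (SD, n = 3; 1.34 ± 0.09, adjusted p = 4.7e-11), by 1.73 ± 0.18 (SE, adjusted p = 5.1e-08) in sphere medium, and by 0.58 ± 0.08 (SE, adjusted p = 6.6e-05) and 0.40 ± 0.08 (SE, adjusted p = 0.0015) beside FGFR3WT and FGFR3S249C. Its relative NEURL1 fell from 4.93 ± 0.35 CPM in EV_full to 1.37 ± 0.03 in UTX_full (-1.85 ± 0.13, adjusted p = 1.2e-10). HEAA moved both genes in the same directions in full medium. NEURL1B rose 2.83-fold there with HEAA, to 27.5 ± 1.57 CPM (adjusted p = 1.5e-11), and 2.77-fold in sphere medium (adjusted p = 7.3e-07). NEURL1 fell with HEAA in full medium to 2.61 ± 0.22 CPM (-0.915 ± 0.12, adjusted p = 2.2e-06). The deltex genes DTX2, DTX3L and DTX4, whose products are ubiquitin ligases that regulate Notch receptors, also rose with UTX in all 4 comparisons. DTX4 went from 128 ± 2.72 to 216 ± 7.09 CPM in full medium (0.76 ± 0.04, adjusted p = 1.8e-13), and its other rises were 0.50, 0.26 and 0.32 on the log2 scale. With HEAA in full medium DTX4 rose by 0.61 ± 0.04 (SE, adjusted p = 1.5e-11). RBPJ, which lies outside the rule and was picked after its values were seen because it encodes the DNA-binding partner of the receptors, rose with UTX in full medium from 86.2 ± 2.72 to 112 ± 2.42 CPM (0.38 ± 0.04, adjusted p = 4.9e-08). Its values with HEAA, in sphere medium and beside FGFR3S249C are not given here. In the second experiment none of the 8 listed genes of the nuclear complex, RBPJ among them, passed with UTX beside FGFR3WT. Among other HES genes, HES4 fell in full medium with UTX (-0.65 ± 0.08, adjusted p = 2.7e-07) and HEAA (-0.33 ± 0.08, adjusted p = 9.8e-04). HES6 fell in sphere medium with UTX (-0.68 ± 0.12, adjusted p = 1.0e-04) and HEAA (-0.50 ± 0.12, adjusted p = 0.0016), as did RFNG, a second fringe, with -0.53 ± 0.06 (SE, adjusted p = 2.9e-07) and -0.57 ± 0.06 (SE, adjusted p = 8.7e-08). HES2 went the other way there, with means of 20.1 CPM in EV_sphere, 34.15 in UTX_sphere and 33.9 in HEAA_sphere. Of the 5 listed HES and HEY genes tested, 1 rose and 2 fell in sphere medium with each protein.

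With the change to sphere medium in EV cells 17 of the 49 listed genes rose and 24 fell (34.7% and 49.0%, beside 33.1% and 32.4% of all genes), with a median of -0.096 beside -0.029 over all genes. The largest falls among those named by the rule were of DLK2, a non-canonical ligand, from 26.4 ± 1.59 to 1.86 ± 0.26 CPM (-3.83 ± 0.12, adjusted p = 1.2e-17), and NEURL1B, from 9.65 ± 1.17 to 1.22 ± 0.32 CPM (-2.99 ± 0.15, adjusted p = 7.3e-14). MAML3, a coactivator, rose from 6.05 ± 0.49 to 13.7 ± 0.14 CPM (1.18 ± 0.07, adjusted p = 7.0e-13) and TLE1, a corepressor that HES proteins recruit, from 19.4 ± 1.14 to 43.6 ± 1.26 CPM (1.16 ± 0.06, adjusted p = 3.6e-14). DLK2 rose with UTX in sphere medium (1.27 ± 0.16, adjusted p = 9.1e-07) and beside FGFR3WT (0.69 ± 0.08, adjusted p = 1.3e-05) and FGFR3S249C (0.64 ± 0.07, adjusted p = 1.8e-05). With HEAA in sphere medium it rose by 1.20 ± 0.16 (SE, adjusted p = 1.8e-06). In full medium of the first experiment DLK2 did not rise with UTX or HEAA. None of the 3 listed ligands tested rose there. HES2 rose beside FGFR3S249C (0.57 ± 0.10, adjusted p = 8.7e-04). MFNG, the third fringe, fell with UTX beside FGFR3WT (-0.19 ± 0.06, adjusted p = 0.047) and FGFR3S249C (-0.20 ± 0.06, adjusted p = 0.025), and MIB1, a ligase that acts on ligands, fell beside FGFR3WT (-0.28 ± 0.08, adjusted p = 0.036). In the first experiment MIB1 was higher with UTX, with means of 62.6 CPM in EV_full and 104 in UTX_full. In sphere medium its means were 57.3 CPM in EV_sphere and 83.2 in UTX_sphere. HEAA_full and HEAA_sphere had MIB1 means of 88.9 and 74.7 CPM. MFNG means there were 15.7 CPM in EV_full and 18.8 in UTX_full, with overlapping libraries, and 5.63 in EV_sphere and 6.02 in UTX_sphere. Between the FGFR3 backgrounds in EV cells NEURL1 (0.61 ± 0.18, adjusted p = 0.044) and HES6 (0.60 ± 0.15, adjusted p = 0.023) were higher with FGFR3S249C and MAML2 (-0.40 ± 0.12, adjusted p = 0.04) and ADAM17 (-0.22 ± 0.05, adjusted p = 0.01) lower. The count of 8 listed genes in that comparison was 1 to 5 when any 1 library was left out, with the lowest count without replicate 3 of EV_FGFR3WT. NEURL1 was the 1 listed gene that passed between the backgrounds in UTX cells (1.04 ± 0.20, adjusted p = 0.01), and no listed gene did without replicate 2 or 3 of UTX_FGFR3WT. None of the 48 passed the UTX by FGFR3 interaction with edgeR, where 7 had an unadjusted p under 0.05 and DESeq2 called 1.

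**Figure D4:**
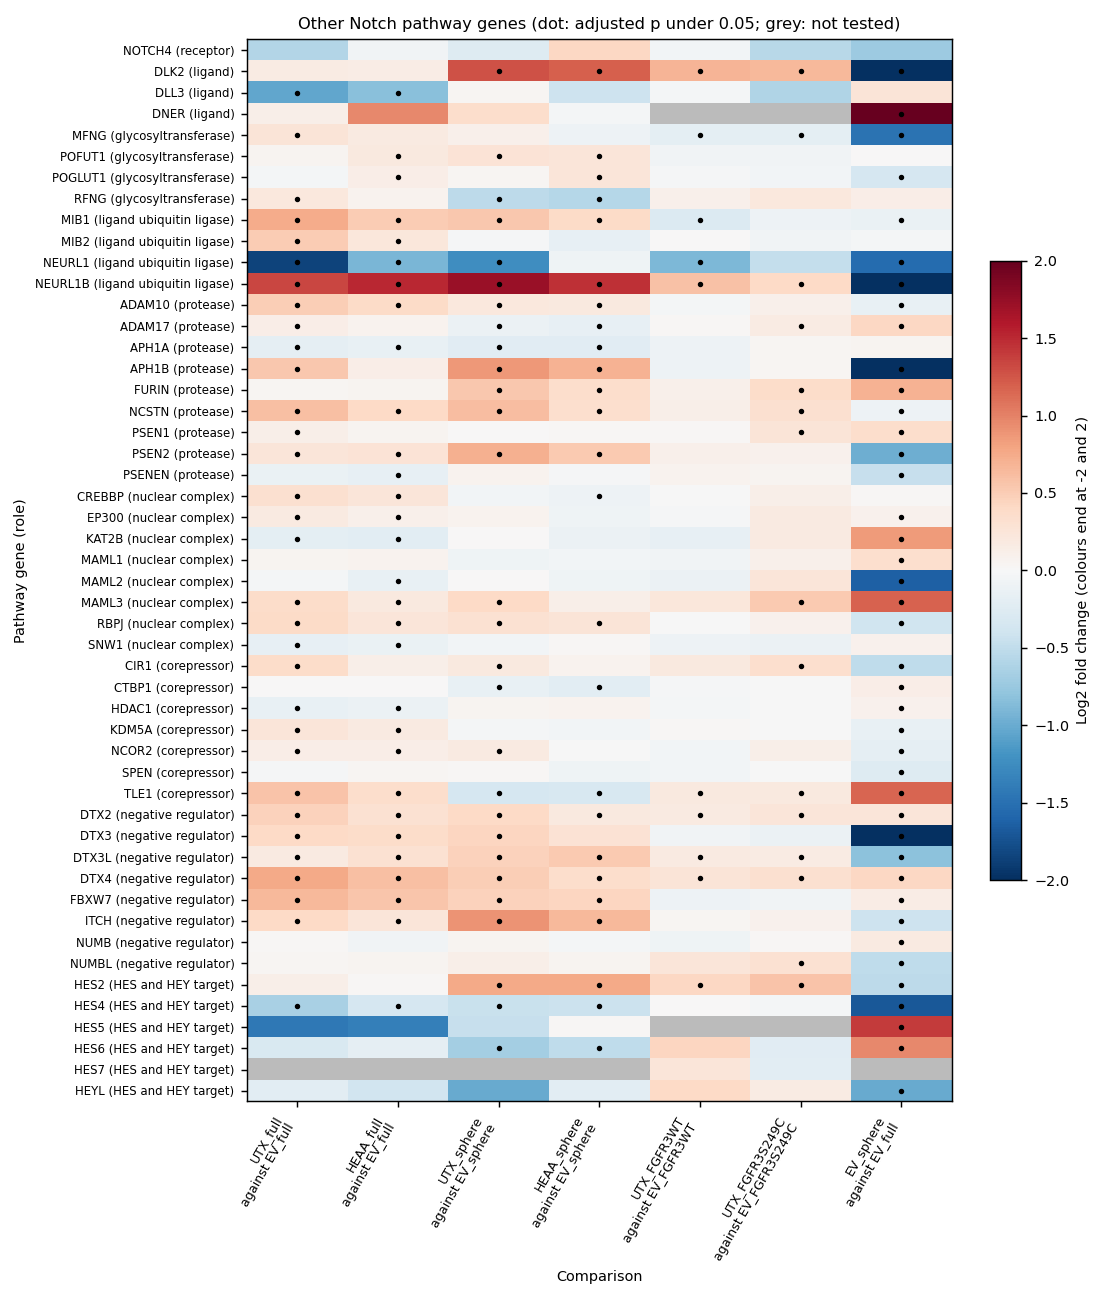
Log2 fold change (colour, ending at -2 and 2) of the other Notch pathway genes that were tested, grouped by role (rows), in 7 comparisons (columns). Dots mark an adjusted p under 0.05 and grey cells genes that were not tested in that experiment. NEURL1B is red in the 6 comparisons with EV and blue in sphere against full medium.

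The genes whose levels followed a member most closely were sought among 12196 genes with a mean of at least 2 CPM in both experiments, by the lower of 2 Pearson coefficients on log2 CPM, over the 18 and over the 12 libraries. Libraries of a group share their treatment, so these coefficients are descriptions and no test goes with them. NRARP was followed most closely by S100A8, a calcium-binding protein (0.97 and 0.95), and CACHD1 (0.94 and 0.97). The mean level of S100A8 was 387 CPM in the first experiment and only 4.18 CPM in the second. LFNG was followed by PGGHG (0.97 and 0.98) and by B2M, the light chain of MHC class I (0.99 and 0.96). For HEY1 the closest was POLDIP3 (0.99 and 0.92), and for JAG2 the closest were ATP1B1 (0.95 and 0.95) and APOL1 (0.99 and 0.94). For NOTCH3, CA12, a carbonic anhydrase, came first (0.90 and 0.87), for JAG1, URB1 (0.96 and 0.87), and for DLL1, WTIP (0.91 and 0.93). ATR came first for NOTCH2 (0.86 and 0.85). The likeness was weakest for NOTCH1, with MAN2A2 (0.80 and 0.83) first, and for HES1, with C19orf53 (0.82 and 0.83).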

How the data were processed

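RNA was harvested 3 days after plating, and each experiment has 1 table of unscaled values per gene and library, deposited by the authors as whole numbers and treated here as estimated counts, since Salmon 0.8 stands among the tools in the submitters' processing notes. The notes also list DESeq2, hg19 and GRCh37 without roles. Per the labels' protocols, TruSeq (Illumina) was the library kit of the first experiment and NEBNext Ultra II that of the second. Samples were grouped by their labels.

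Each table was fitted over all its groups with edgeR 4.0.16 in R 4.3.3 (filterByExpr, TMM scaling, quasi-likelihood F test with Benjamini-Hochberg adjustment over all genes, threshold 0.05), giving 16 comparisons in all; 19629 and 19399 genes were tested. The common biological coefficient of variation was 4.58% and 6.05%. The procedure was also run on simulated counts with the same spread for all genes and few changed genes, balanced up and down. That run does not cover scaling where most genes change, as between the media. Alternatives were DESeq2 1.42.0, RLE size factors, library totals alone, no filter on low counts, only the compared groups, a replicate block, and leaving out each library.

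The 10 Notch genes and the gene lists were chosen with earlier results of these data known. The text names all 10, and of the other pathway genes the 2 largest rises and falls past the threshold in 9 comparisons (means of at least 2 CPM, no overlap between groups) and those called the same way in all 4 comparisons of UTX with EV. The 2 genes most like each member were found on log2 CPM with a pseudocount of 0.5, and the text gives the first or both. The transcript-length check, the levels per length, the share of genes that moved as far and the choice of printed promoters were added after the values were seen. Coordinates are those of GENCODE v29 on GRCh38, not the build of the processing notes, and serve only to locate genes. The deposited rows carry gene names, through which genes were matched.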

Additional observations from a re-analysis of the deposited data

Results flagged for a closer look

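Between the media, differences in the effect of UTX or HEAA that passed the test of the difference itself (log2 fold change against EV in sphere medium minus that in full medium, edgeR) are listed here by gene. NRARP differed by 3.80 for UTX and 2.27 for HEAA, and HEY1 by 1.23 and 0.92. DLL1 differed by 0.48 for UTX and 0.89 for HEAA, and JAG2 by 0.51 and 0.38. LFNG differed by -0.92 for UTX and -0.59 for HEAA, and NOTCH1 by -0.39 and -0.40. NOTCH2 (0.29) and NOTCH3 (0.66) passed for UTX, and JAG1 (-0.36) passed for HEAA. NOTCH2 and NOTCH3 also passed for HEAA under several alternatives, with values given above. A gene that passed with 1 of the 2 proteins was not tested for a difference between the proteins. NRARP in UTX_full rests on 42 counts over 3 libraries.

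Between the FGFR3 backgrounds, the effect of UTX (FGFR3S249C minus FGFR3WT) differed by 1.16 for HEY1 and by 0.63 for NOTCH3. Both kept their call when any 1 library was left out, with values of 1.10 to 1.24 for HEY1 and 0.55 to 0.73 for NOTCH3.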

How the results depend on the processing

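Of the 190 counts of called genes recomputed under the settings that kept every library, 183 stayed within 1.5 times the reported count. For single genes, 115 of the 160 results passed the threshold under at least 1 setting and are covered here; of their 688 values, 655 kept direction and call, 5 lost the call, 24 gained it and 4 changed sign. With 1 library left out these were 777, 24, 19 and 2 of 822. The sign changes with libraries scaled by their totals were NOTCH1 (-0.046) and HES1 (-0.036) for EV_sphere against EV_full and NOTCH2 (-0.034) for UTX_sphere against UTX_full; that scaling moved the median gene by 0.11 for UTX_sphere against EV_sphere and by -0.18 for EV_sphere against EV_full. NOTCH2 in HEAA_sphere against HEAA_full was 0.0073 without the filter, and -0.033 to 0.012 with 1 library left out. HES1 in EV_sphere against EV_full was -0.00803 to 0.35 with 1 left out. The cause was not tested.

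For UTX_FGFR3S249C against UTX_FGFR3WT, where none of the 10 genes and 1 of the pathway list passed, DESeq2 called 1 and 3, and 0 to 1 and 0 to 2 passed with 1 library left out; the list gave 3 with RLE size factors, 3 without the filter, 2 with library totals and 2 with only the compared groups. For the UTX by FGFR3 interaction the list gave 1 with DESeq2 and 0 to 1 with 1 library left out. Counts of the 10 genes with 1 library left out were 5 to 7 for HEAA_full against EV_full and 2 to 3 for UTX_full against HEAA_full. For the list they were 6 to 11 for UTX_sphere against HEAA_sphere (6 and 7 without replicate 2 of UTX_sphere or HEAA_sphere, 13 with all), 4 to 7 for UTX_FGFR3WT against EV_FGFR3WT and 1 to 5 for EV_FGFR3S249C against EV_FGFR3WT.

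Same-numbered libraries did not all deviate together (correlations of -0.23 to 0.15 in the first and -0.16 to 0.34 in the second experiment, the highest for replicate 3 of both UTX groups), so the numbers were not taken as pairs. With a replicate block, 98 calls of the 10 genes were made over the 16 comparisons, against 97, and the 1 changed call was HES1 in the HEAA by medium interaction (0.43, adjusted p = 0.039 with edgeR).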
